A study of Arabidopsis thaliana with 6 samples.

Results

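RopGEFs are the plant-specific guanine nucleotide exchange factors of the ROP GTPases, which act as molecular switches in signalling. They carry a catalytic PRONE domain that makes a ROP release GDP and take up GTP, and the active ROP then recruits RIC effector proteins that act on actin, calcium and secretion. In pollen tubes, ROP1 is active in a patch at the tip, where receptor-like kinases bind RopGEFs and so place ROP activation, while GTPase-activating proteins (GAPs) and guanine nucleotide dissociation inhibitors (GDIs) limit it. The 8 genes described here are ROPGEF1 (AT4G38430), ROPGEF8 (AT3G24620), ROPGEF9 (AT4G13240), ROPGEF10 (AT5G19560), ROPGEF11 (AT1G52240), ROPGEF12 (AT1G79860), ROPGEF13 (AT3G16130) and ROPGEF14 (AT1G31650). They were taken by gene identifier from the 27655 genes of the deposited expression table. The choice was made with earlier results of these data known.

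RNA was sequenced from 3 libraries of sperm cells (SCs) and 3 of vegetative nuclei (VN), all sorted by fluorescence from mature pollen of one Arabidopsis thaliana marker line with a wild-type background label. Both groups therefore carry the same 2 transgenes, MGH3p::MGH3-GFP, which marks SCs, and ACT11p::H2B-mRFP, which marks the VN. The plants grew for 8 weeks in short days of 8 h light and then flowered under 16 h light. Each library was Smart-seq2 cDNA from a small pool of sorted cells or nuclei, per the paper's methods. The paper calls the 3 libraries of a group biological replicates. Nothing in the labels says whether they came from separate plants, so p-values measure the spread between these libraries. Levels are given in TPM (transcripts per 1000000), a share of all transcripts of a library corrected for transcript length, and the read depth of a library cannot be recovered from them. Between 12418 and 15112 genes were above 0 TPM in SC libraries and between 10202 and 15289 in VN libraries. All 8 sperm markers were higher in SCs, where they summed to 8564 to 10124 TPM against 125 to 372 TPM in VN, and all 10 vegetative cell markers were higher in VN (24327 to 30607 TPM against 821 to 1142 TPM in SCs). The 6 green tissue markers summed to at most 4.48 TPM and the 5 tapetum markers to at most 3.22 TPM in any library. Of the green tissue markers, LHCB1.1 was at 0 in all libraries, while RBCS2B was at 4.13, 1.47 and 3.84 TPM in SC replicates 1, 2 and 3 and at 0 in VN (called higher in SCs, log2 fold change 1.98, limma adjusted p = 0.00151). Their part in the SC values of the RopGEFs was not tested.

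RopGEF transcripts were abundant in VN and scarce in SCs. ROPGEF9, ROPGEF8, ROPGEF12 and ROPGEF11 each stood above 200 TPM in every VN library and below 6 TPM in every SC library. ROPGEF13 was present in VN at a low level, ROPGEF10 did not exceed 1.32 TPM in any library, and ROPGEF1 and ROPGEF14 did not exceed 0.0455 TPM. Summed over the 8 genes, VN replicates 1, 2 and 3 held 2652, 2455 and 1924 TPM, whereas SC replicates 1, 2 and 3 held 9.81, 13.6 and 10.8 TPM. With the 10 highest genes of each library removed and the rest rescaled, the mean sum moved from 11.4 to 21.6 TPM in SCs and from 2344 to 2713 TPM in VN. SC libraries were made from cells and VN libraries from nuclei, so cell type and the part of the cell sampled cannot be told apart. Fewer contributing cells and less RNA per cell cannot be told apart either.

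**Figure D1:**
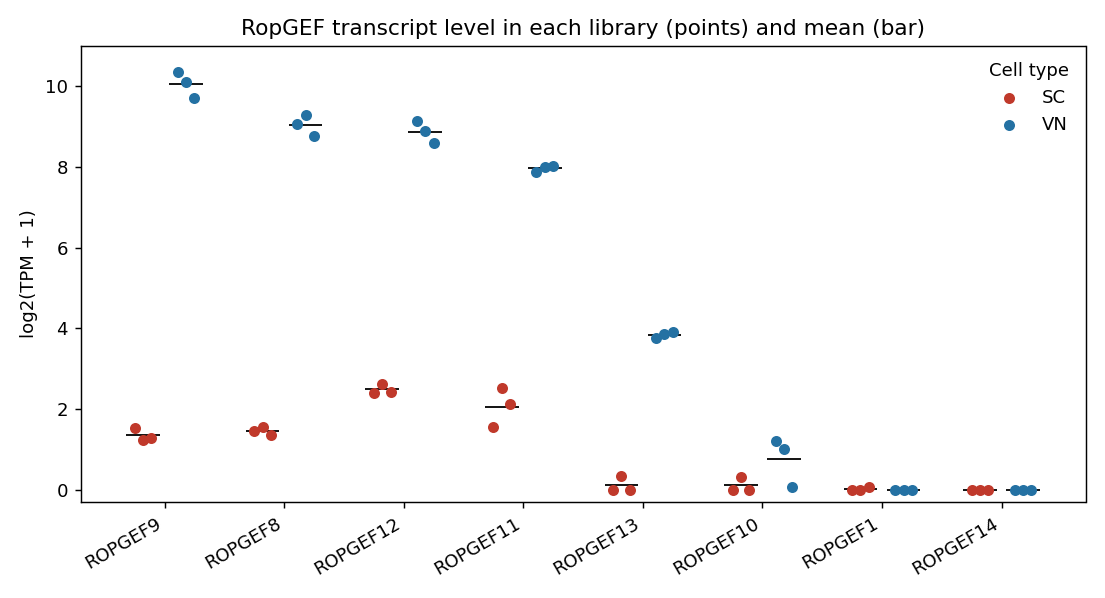
Level of the 8 RopGEF genes in log2(TPM + 1), with 1 point for each SC library (red) and VN library (blue) and a bar for the mean of 3. Between the cell types, the points of ROPGEF9, ROPGEF8, ROPGEF12, ROPGEF11 and ROPGEF13 do not overlap. Those of ROPGEF10 are low and overlap, while ROPGEF1 and ROPGEF14 lie near 0 in both.

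Differences were tested with limma on log2(TPM + 1) over the 10955 genes that reached 1 TPM in at least 2 libraries, and calls needed a log2 fold change beyond 1 in either direction with p under 0.01 after Benjamini-Hochberg adjustment. Of all tested genes, 35.6% were called higher in VN and 29.2% higher in SCs. Of the 8 RopGEFs, 5 entered the test, and all 5 were called higher in VN. In each of these 5, all VN libraries lay above all SC libraries, as they did for 41.8% of all tested genes. ROPGEF13 entered the test through VN alone, so the filter fixed its direction, whereas the other 4 reached 1 TPM in each of the 6 libraries. The vegetative cell markers moved in the same direction (10 of 10 called, median log2 fold change -5.15), and their part in the RopGEF result was not tested.

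ROPGEF9, one of the RopGEFs with pollen-enriched expression, had the highest level of the family. It was at 1306, 1096 and 831 TPM in VN replicates 1, 2 and 3 and at 1.88, 1.34 and 1.45 TPM in SC replicates 1, 2 and 3. Every VN library lay far above every SC library, and the spread within VN (1078 ± 238 TPM, SD, n = 3) was small against the distance to SCs. The VN mean was 692 times the SC mean, with a log2 fold change (SC minus VN, on the log2(TPM + 1) scale, which understates changes of low values) of -8.70 (SE 0.24, limma adjusted p = 2.51e-07). In VN it ranked between 138 and 205 among all 27655 genes. Its gene spans 7679950 to 7682622 on chromosome 4 of TAIR10.1 (plus strand), with 7 exons and no other annotated gene across it.

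ROPGEF8, its closest relative among the 8, was at 536, 619.9 and 433 TPM in VN replicates 1, 2 and 3, and at 1.73, 1.92 and 1.54 TPM in the SC replicates. Its log2 fold change was -7.59 (SE 0.23, limma adjusted p = 2.51e-07), and the VN mean was 306 times that of SCs. ROPGEF12, which binds pollen receptor-like kinases through its C-terminal part, was at 562, 471 and 387 TPM in the VN replicates and at 4.29, 5.14 and 4.38 TPM in the SC replicates. Its SC level was the highest of the family, its VN level overlapped that of ROPGEF8, and its log2 fold change was -6.39 (SE 0.22, limma adjusted p = 2.70e-07). Both genes are on minus strands, ROPGEF8 on chromosome 3 (8980400 to 8982903, 7 exons) and ROPGEF12 on chromosome 1 (30041989 to 30044297, 5 exons).

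ROPGEF11, also known as PIRF1, a phytochrome-interacting RopGEF with functions in roots, was at 234, 254 and 259 TPM in VN replicates 1, 2 and 3. These were the most even VN values of the 4 abundant members (249 ± 13.2 TPM, SD, n = 3). In SC replicates 1, 2 and 3 it was at 1.92, 4.70 and 3.36 TPM, the widest spread of the family in SCs. The log2 fold change was -5.91 (SE 0.29, limma adjusted p = 6.80e-07). ROPGEF13 (PIRF2), the closest relative of ROPGEF11 among the 8, was at 12.5, 13.4 and 14 TPM in VN, whereas in SCs it was listed at 0 in replicates 1 and 3 and at 0.261 TPM in replicate 2. Its log2 fold change of -3.73 (SE 0.29, limma adjusted p = 8.02e-06) depended on the pseudocount and became -6.45 with 0.1 in place of 1.

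The level of ROPGEF13 was a nearly fixed share of that of ROPGEF11 in VN, at 5.34%, 5.28% and 5.42% in replicates 1, 2 and 3. In SC replicate 2, the only SC library in which ROPGEF13 was above 0, the share was 5.55%. Their coding sequences were identical at 75% of 1569 aligned bases, and their transcripts shared 8 sequence words of 31 bases, out of 2064 for ROPGEF11 and 1849 for ROPGEF13. How far reads of ROPGEF11 contributed to the ROPGEF13 value was not tested. Both genes also end across a photosystem I gene on the opposite strand. ROPGEF11 (chromosome 1, 19455495 to 19458069, minus strand) shares 174 bp with PSAH2 (AT1G52230), which was at 6.46, 7.22 and 4.51 TPM in VN and at 0 in SCs. ROPGEF13 (chromosome 3, 5466246 to 5468774, plus strand) shares 788 bp with PSAH-1 (AT3G16140), at 3.14, 0.272 and 1.15 TPM in VN and 0 in SCs. Smart-seq2 libraries keep no strand, so reads in these stretches cannot be assigned to one gene.

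The other 3 members did not reach the filter. ROPGEF10, known from root hairs, was at 1.32, 0.996 and 0.0492 TPM in VN replicates 1, 2 and 3, while in SCs it was at 0 in replicates 1 and 3 and at 0.249 TPM in replicate 2. The 2 ranges overlapped (p = 0.2 in a two-sided exact permutation test, where 0.1 is the smallest that 3 libraries against 3 allow). ROPGEF1, one of the first RopGEFs studied in pollen tubes and root hairs, was at 0.0455 TPM in SC replicate 3 and listed at 0 in the other 5 libraries. ROPGEF14 was listed at 0 in all 6. The 6 PRONE-type RopGEFs outside the 8 (ROPGEF2 to ROPGEF7) did not exceed 0.544 TPM in any library, and none was tested. Of the 14 PRONE-type genes, 5 were above 10 TPM in every VN library. A value of 0 in this table says only that the gene is listed at 0.

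The order of the members differed between the cell types. In VN, ROPGEF9 was first in each library, ROPGEF8 and ROPGEF12 followed with overlapping ranges (433 to 619.9 and 387 to 562 TPM), and ROPGEF11 (234 to 259 TPM) and ROPGEF13 (12.5 to 14 TPM) came next, each clear of its neighbours. In SCs, ROPGEF12 came first (4.29 to 5.14 TPM), but its range overlapped that of ROPGEF11 (1.92 to 4.70 TPM), which overlapped that of ROPGEF8 (1.54 to 1.92 TPM), and the latter that of ROPGEF9 (1.34 to 1.88 TPM). ROPGEF9 made up 49.2%, 44.6% and 43.2% of the summed RopGEF TPM in VN replicates 1, 2 and 3, against 19.1%, 9.87% and 13.5% in SCs. ROPGEF12 made up 21.2%, 19.2% and 20.1% in VN and 43.7%, 37.8% and 40.6% in SCs. The share of ROPGEF11 was 8.83% to 13.5% in VN and 19.5% to 34.5% in SCs, and that of ROPGEF8 was 20.2% to 25.2% in VN and 14.1% to 17.6% in SCs.

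**Figure D2:**
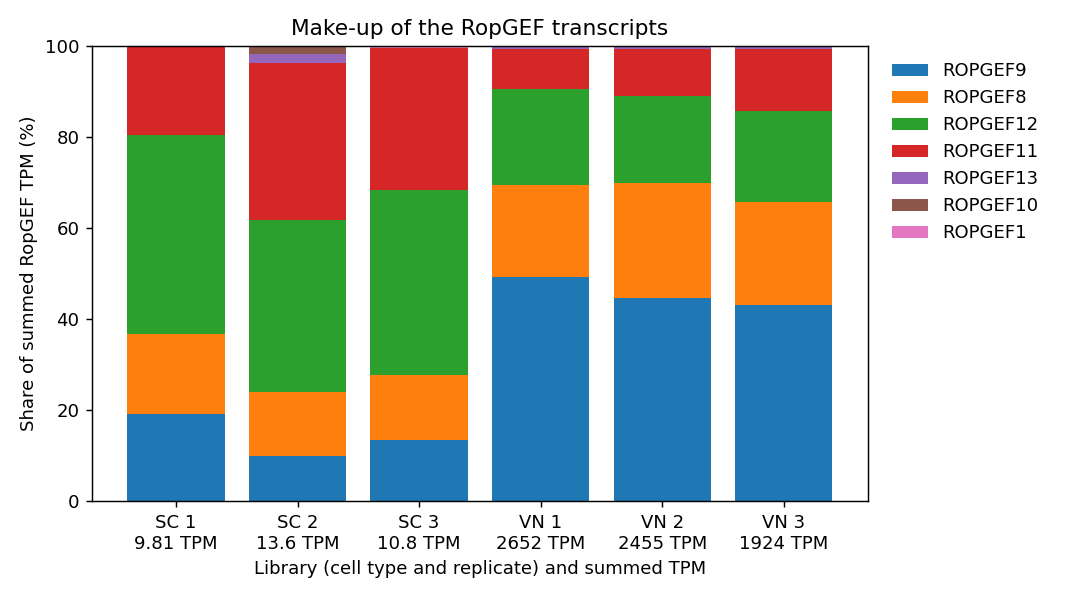
Share of each member in the summed RopGEF TPM of a library, in percent, as stacked bars for the 3 SC and 3 VN libraries, with the sum in TPM under each bar. ROPGEF9 (blue) is the largest part in every VN library and ROPGEF12 (green) in every SC library, while the SC sums are only 9.81 to 13.6 TPM.

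Ratios between members within a library are free of the scale of that library. ROPGEF9 was at 2.32, 2.33 and 2.15 times the level of ROPGEF12 in VN replicates 1, 2 and 3 but at 0.437, 0.261 and 0.332 times its level in SCs, so the order of the pair turned in every library. The ratio of ROPGEF9 to ROPGEF11 was 5.58, 4.31 and 3.21 in VN and 0.979, 0.286 and 0.432 in SCs. Of the 6 pairs among the 4 abundant members, 5 had ratios that did not overlap between the cell types, each with p = 0.1 (exact permutation test on the log2 ratio, two-sided, adjusted p = 0.12 over 6 pairs), the smallest p that 3 libraries against 3 allow. The exception was ROPGEF11 to ROPGEF12, at 0.417 to 0.67 in VN and 0.446 to 0.914 in SCs (exact permutation test, p = 0.4). The 6 pairs are drawn from 4 genes and are not independent. Their SC ratios rest on levels of 1.34 to 5.14 TPM. How often the ratios of other gene pairs separate the cell types was not determined.

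**Figure D3:**
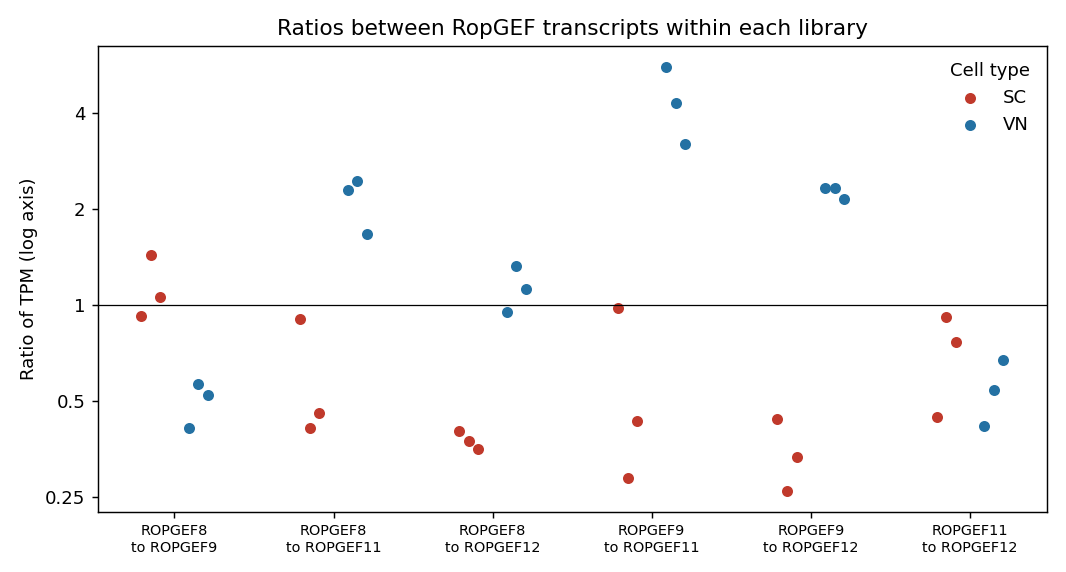
Ratio of TPM between 2 members within each library on a log axis, for the 6 pairs among ROPGEF8, ROPGEF9, ROPGEF11 and ROPGEF12, with SC libraries in red and VN libraries in blue. ROPGEF9 to ROPGEF12 changes from 2.15 to 2.33 in VN to 0.261 to 0.437 in SCs. Ratios of 5 pairs do not overlap between the cell types, and the share of other gene pairs with such ratios was not determined.

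The low SC values were also compared with those of other genes abundant in VN. Among the 721 genes with a VN mean of at least 200 TPM, the SC mean was at a median of 2.77% of the VN mean (quartiles 1.16% and 5.64%). For ROPGEF9 it was at 0.145%, and 24 of the 721 genes (3.33%) had a lower share. ROPGEF8 was at 0.327% (8.04% of genes lower), ROPGEF12 at 0.973% (22.2% lower) and ROPGEF11 at 1.33% (27.5% lower). All 4 thus lay below the median of these genes, and ROPGEF9, ROPGEF8 and ROPGEF12 below the lower quartile. The 10 vegetative cell markers summed to 821 to 1142 TPM in the same SC libraries, with unequal parts. AGP11 averaged 510.3 TPM there and RBOHH 1.14 TPM, while VEX1 and RBOHJ did not exceed 0.217 TPM. The part of these markers in the low RopGEF values was not tested.

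In the annotated transcripts of the 8 members, no pair shared more than 8 sequence words of 31 bases. Assignment of reads was not examined. Among the 28 pairs of the 8 genes, coding identity ran from 50.4% to 80.2%, highest for ROPGEF8 and ROPGEF9, and only 3 pairs shared any word of 31 bases. The window given here is the coding stretch around the longest run common to ROPGEF8 and ROPGEF12 (38 bases) and shows how the 5 called members differ in a stretch where this pair is alike. It holds 60 bases of the coding strand in TAIR10.1 (RefSeq), with the intron that it crosses left out, and capitals mark bases that differ from ROPGEF9.
ROPGEF9: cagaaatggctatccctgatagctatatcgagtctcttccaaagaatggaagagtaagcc
ROPGEF8: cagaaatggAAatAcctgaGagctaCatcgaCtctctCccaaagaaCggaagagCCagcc
ROPGEF12: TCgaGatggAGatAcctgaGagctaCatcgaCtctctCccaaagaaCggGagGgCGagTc
ROPGEF11: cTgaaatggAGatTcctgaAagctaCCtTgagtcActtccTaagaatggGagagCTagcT
ROPGEF13: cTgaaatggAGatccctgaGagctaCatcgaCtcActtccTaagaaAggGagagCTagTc
The windows lie at chr4:7681307-7681494 (plus strand), chr3:8981490-8981631 (minus strand), chr1:30042819-30042977 (minus strand), chr1:19456553-19456699 (minus strand) and chr3:5467531-5467704 (plus strand), in the same order. From ROPGEF9, ROPGEF8 differed at 10 of the 60 bases, ROPGEF12 at 16, ROPGEF11 at 14 and ROPGEF13 at 13.

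Upstream sequence was read for the 8 genes because 4 of them were abundant in the same nuclei in which others were at 0. The 250 bases before the annotated gene start (TAIR10.1, RefSeq) are given for the 3 most abundant members and for ROPGEF1, with the letters AGAAA, a motif known from the promoter of the tomato pollen gene LAT52, in capitals on either strand (TTTCT on the reverse).
ROPGEF9: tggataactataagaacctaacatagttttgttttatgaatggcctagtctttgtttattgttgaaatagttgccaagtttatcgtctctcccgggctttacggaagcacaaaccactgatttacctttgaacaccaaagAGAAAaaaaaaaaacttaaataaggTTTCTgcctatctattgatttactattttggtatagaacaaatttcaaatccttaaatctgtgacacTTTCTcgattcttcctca
ROPGEF8: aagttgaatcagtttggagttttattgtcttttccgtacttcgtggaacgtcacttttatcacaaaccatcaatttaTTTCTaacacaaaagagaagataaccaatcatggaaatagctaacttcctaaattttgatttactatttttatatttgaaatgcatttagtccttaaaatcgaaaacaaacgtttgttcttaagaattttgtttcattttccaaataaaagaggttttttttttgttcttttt
ROPGEF12: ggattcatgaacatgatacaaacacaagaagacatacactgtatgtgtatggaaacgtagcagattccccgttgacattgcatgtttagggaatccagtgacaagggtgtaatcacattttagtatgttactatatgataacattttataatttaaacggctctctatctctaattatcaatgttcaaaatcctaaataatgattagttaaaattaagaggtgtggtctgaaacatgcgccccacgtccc
ROPGEF1: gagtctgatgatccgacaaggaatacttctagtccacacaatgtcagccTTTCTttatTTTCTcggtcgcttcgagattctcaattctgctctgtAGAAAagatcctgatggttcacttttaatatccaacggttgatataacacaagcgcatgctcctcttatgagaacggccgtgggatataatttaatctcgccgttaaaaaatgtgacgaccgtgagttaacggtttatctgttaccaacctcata
These windows lie at chr4:7679700-7679949 (plus strand), chr3:8982904-8983153 (minus strand), chr1:30044298-30044547 (minus strand) and chr4:17986134-17986383 (plus strand). AGAAA was found 3 times before ROPGEF9, 1 time before ROPGEF8, not at all before ROPGEF12 and 3 times before ROPGEF1. Among the members not printed, it was found 3 times before ROPGEF11, 5 times before ROPGEF13, 2 times before ROPGEF10 and not at all before ROPGEF14. Over the 27443 protein-coding genes with such a window, 82.5% held it on either strand, with a median of 2 matches. The letters GTGA (TCAC on the reverse), known from the promoter of the tobacco pollen gene g10, occurred 1 time before ROPGEF9, 2 times before ROPGEF8, 2 times before ROPGEF12 and 3 times before ROPGEF1, and in 77.5% of all windows (median of 1 match). They occurred 1 time before ROPGEF11, 2 times before ROPGEF10, 4 times before ROPGEF14 and not at all before ROPGEF13. Searches were on both strands, and the 2 motifs can overlap.

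The genes whose levels over the 6 libraries were nearest to the leading members were found by Euclidean distance on log2(TPM + 1) among 10950 other tested genes. Nearest to ROPGEF9 were AT3G05150, described as a major facilitator superfamily protein (distance 0.57), the protein kinase gene AT4G14780 (0.80) and AT4G20700 (0.86). AT4G20700 is described as RNA-binding and as a putative reverse transcriptase. AT3G05150 was at 1403, 1390 and 914 TPM in VN replicates 1, 2 and 3 and at 2.49, 1.92 and 1.44 TPM in SCs. Its likeness to ROPGEF9 follows from the way it was chosen. Nearest to ROPGEF12, the member with the highest SC mean, were the calmodulin-binding family gene IQM6 (AT3G58480, 0.31), AT4G04980 (0.31) and PPI1 (AT4G27500, 0.42), which encodes a proton pump interactor.

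The genes that act with RopGEFs were mostly higher in VN as well. Of 15 receptor-like and AGC kinases that act upstream, 13 were tested and all 13 called higher in VN (median log2 fold change -5.61), against 35.6% of all tested genes and their median of -0.55. PRK2, which binds ROPGEF12, averaged 1115 ± 109 TPM in VN and 27.9 ± 6.01 TPM in SCs (SD, n = 3 each). The LURE receptor PRK6 was at 101, 53.0 and 36.8 TPM in VN replicates 1, 2 and 3 and listed at 0 in all SC libraries. AGC1.5, a kinase that phosphorylates RopGEFs in pollen tubes, was at 272 ± 49.3 TPM in VN and 10.5 ± 3.48 TPM in SCs (SD, n = 3 each). FERONIA (FER), whose partners in vegetative tissues include RopGEFs, was listed at 0 in all 6 libraries.

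Of the 11 ROP GTPase genes, the substrates of RopGEFs, 4 were tested and all 4 called higher in VN (ROP1, ROP3, ROP5 and ROP8). For this list and those that follow, the share of all tested genes called higher in VN was 35.6%. ROP8 was at 0.936, 6.45 and 5.35 TPM in VN replicates 1, 2 and 3 and at most 0.0823 TPM in SCs, and its call was lost without any 1 of the SC libraries, and without VN replicate 2 or 3 it no longer passed the filter (log2 fold change -2.12 with all libraries, limma adjusted p = 0.00615). ROP1, the main ROP of the pollen tube tip, was at 741 ± 71.0 TPM in VN against 17.9 ± 1.27 TPM in SCs (SD, n = 3 each). The sum over the ROP genes was 1090, 1206 and 1027 TPM in VN replicates 1, 2 and 3, so the RopGEF transcripts were at 2.43, 2.04 and 1.87 times the ROP transcripts. In SCs they were at 0.290, 0.463 and 0.432 times. Of 11 GAP and GDI genes, 6 were tested and 4 called higher in VN, namely the GAP gene REN1 and the GDI genes SCN1, RhoGDI2a and RhoGDI2b. SCN1 had the smallest difference of these, at 318 ± 18.7 TPM in VN and 84.3 ± 22.3 TPM in SCs (SD, n = 3 each). ROPGAP1 (log2 fold change 0.30, limma adjusted p = 0.472) and ROPGAP2 (0.72, adjusted p = 0.196) were not called, although ROPGAP2 was called higher in SCs without VN replicate 1 (1.25, adjusted p = 0.00546). Among 11 RIC effector genes, 6 were tested and all 6 called higher in VN (median log2 fold change -6.07), with RIC1 at 539 ± 21.3 TPM in VN and 11.6 ± 0.0849 TPM in SCs (SD, n = 3 each). The call of RIC8 (log2 fold change -1.57, limma adjusted p = 0.00165) was lost without the filter (adjusted p = 0.0157) and with centring (adjusted p = 0.0151). RIC2 ran the other way below the filter and was not tested, at 0.841, 0.749 and 0.605 TPM in SC replicates 1, 2 and 3 and at 0 in VN. Tested genes of these lists that were near 0 in SCs entered the test through VN alone, so the filter fixed their direction.

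**Figure D4:**
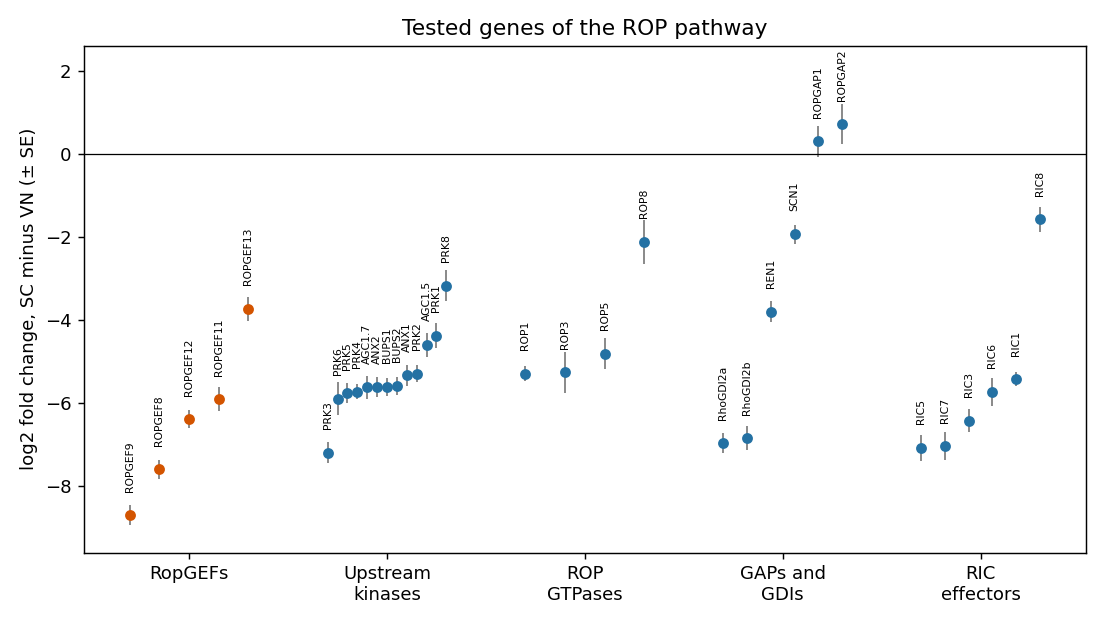
Log2 fold change (SC minus VN, on the log2(TPM + 1) scale) of each tested gene of the ROP pathway with its standard error, n = 3 libraries per cell type. RopGEFs (orange) run from -8.70 for ROPGEF9 to -3.73 for ROPGEF13, and only ROPGAP1 and ROPGAP2, which were not called, lie above 0.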

How the data were processed

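Per the labels and the paper's methods, the authors trimmed reads with Trim Galore, used Hisat2 to map them to TAIR10 and StringTie to assemble transcripts, which were joined with Araport11 and quantified with Salmon. They deposited gene-level TPM values for the 6 libraries, each summing to 1000000. How transcripts were summed into genes is not given in the sources used here, and transcripts were not analysed here. TPM keeps no depth, so no counting error is given, and normalization on read counts was not run.

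Genes with at least 1 TPM in at least 2 libraries were tested on log2(TPM + 1) with limma 3.58.1 (R 4.3.3), with a mean-variance trend, two-sided. The procedure was tried on simulated data in which few genes changed. These data differ in that, so the trial gives no error rate for them. Positions, coding sequences and upstream windows came from the RefSeq annotation of TAIR10.1, matched by locus tag for all 8 members. Its nuclear chromosomes were taken as those of TAIR10. Ratios, permutation tests and figures used scipy 1.17.1, matplotlib 3.10.9, pandas 2.3.3 and numpy 2.4.6 under Python 3.11.15. Lists, by gene identifier, held 8 RopGEFs, 7 other Rop exchange factors (SPK1 included, at most 0.207 TPM), 15 upstream kinases, 11 ROPs, 11 GAPs and GDIs, 11 RICs, and markers of sperm (8), vegetative cell (10), green tissue (6) and tapetum (5). Named genes are the members, genes of the lists whose counts are given (any list member or called member), and the 3 nearest genes of the members highest in VN and in SCs. PSAH2 and PSAH-1, outside that rule, are named because they overlap members. The members and lists were chosen with earlier results of these data known. Sorting batches are not given per library, so no within-batch value is given.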

Additional observations from a re-analysis of the deposited data

How the results depend on the processing

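All 5 RopGEFs called higher in VN kept that call, and none was called higher in SCs, under a pseudocount of 0.1, no filter, a stricter filter (3 libraries), quantile normalization, centring on the median, removal of the 10 highest genes of each library, limma without trend and the replicate block, and without any 1 of the 6 libraries. Over these, the log2 fold change ran from -9.33 to -7.94 for ROPGEF9, -8.17 to -6.79 for ROPGEF8, -6.64 to -5.58 for ROPGEF12, -6.27 to -5.20 for ROPGEF11 and -6.45 to -3.21 for ROPGEF13. The median over all tested genes moved from -0.55 to -0.13 with quantile normalization, -0.03 with centring and 0.01 with the highest genes removed, and ROPGEF9 was then at -7.94, -8.18 and -8.30. Removing those genes, which held 42.8% to 49.9% of SC and 12.7% to 15.2% of VN transcripts, raised the mean RopGEF sum of SCs to 21.6 TPM. Leaving out a library gave 5 called members each time. Pathway calls ranged from 3 to 4 ROPs, 5 to 6 RICs, 4 to 5 GAPs and GDIs and 13 kinases in all settings. ROP8 lost its call without the filter, with quantile normalization and with centring and was not tested under the stricter filter, and RIC8 without the filter and with centring. All genes called ranged from 5845 to 7411, and all genes called higher in VN from 3320 to 4299 (35.6% of tested genes with the main settings).

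No pairing of the libraries by replicate number was visible in the levels, which cannot tell whether libraries of the same number shared pollen or a sort. The correlation of deviations from the group means between SC and VN libraries of the same number was 0.00853, -0.035 and -0.0194 over 10955 genes, and no SC library correlated best with its own number. With the replicate block, 5 RopGEFs and 6927 genes in all were called, against 7105 without it.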
